A study of Rattus norvegicus with 8 samples.

Results

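The mitochondrial respiratory chain and ATP synthase were measured by 100 probe sets for 54 genes, of 8740 probe sets on the array that are not controls. Members were chosen by symbol, as probe sets matched to a single gene whose name starts with Nduf, Uqcr, Atp5 or Cox4 to Cox8 and a letter, or is Sdha, Sdhb, Sdhc, Sdhd or Cycs. Complex I was covered by 49 probe sets for 27 genes, complex II by 1 probe set for Sdha, complex III by 6 for 3 genes, complex IV by 27 for 13 gene names and ATP synthase by 17 for 10 genes. No probe set was matched to Sdhb, Sdhc, Sdhd or Cycs alone. The gene identifiers of all 100 were found in RefSeq, assembly GRCr8, under the same symbols, and 1 of the 54 names, Cox6c-ps1, is a pseudogene.

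Snap-frozen liver of 8 male Fischer 344 rats was used, each rat with its own Affymetrix Rat Genome U34 array, version A. The labels give all rats an age of 6 without a unit, and AIN 76A chow. On days 1, 3 and 5 the 4 D3T rats were gavaged with D3T, 0.3 mmol per kg, in saturated sucrose. The 4 vehicle rats were given 0.2 ml of the sucrose alone, and the label of vehicle replicate 2 names no days. D3T is a dithiolethione that activates the Nfe2l2 protein, a transcription factor of antioxidant and detoxification genes. The labels do not say how long after the last dose the livers were taken.

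The respiratory chain passes electrons from NADH (through complex I) and from succinate (through complex II) to ubiquinone, on to complex III, cytochrome c and complex IV, where oxygen is reduced. Complexes I, III and IV pump protons out of the matrix, and ATP synthase lets them back in to make ATP. Hepatocytes are rich in mitochondria and spend that ATP on urea, glucose and protein synthesis. Apart from complex II, each of these complexes joins subunits coded in the nucleus, the ones measured here, with subunits coded in mitochondrial DNA.

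A probe set is a group of short probes against 1 transcript, and its signal is a brightness with no unit, which does not measure one gene's transcripts against another's. Signals under a floor of 20.3 were set to it, and the 60% of probe sets with the highest mean log2 signal were tested. An adjusted p is limma's p-value after Benjamini-Hochberg adjustment over all 5244 probe sets tested. Correlations between arrays ran from 0.930 to 0.968, and the number of arrays, 4 per group, limits the precision.

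Most transcripts of the respiratory chain and ATP synthase differed little between D3T and vehicle livers. Of the 89 member probe sets bright enough to be tested with limma, 3 rose (Ndufv2 of complex I, Atp5po and Atp5if1 of ATP synthase) and 3 fell (Cox4i1, Cox5b and Cox6b1 of complex IV). All 6 changes were under 2-fold, from 1.33-fold for Atp5po to 1.98-fold for Cox5b. The members passing an adjusted p of 0.05 made up 6.74% of those tested, whereas 10.7% of all 5244 probe sets tested passed, 4.2% as higher and 6.48% as lower.

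Groups that did not overlap were found for 16 of the 89, with all 4 D3T arrays above the vehicle arrays for 8 and below them for 8. Over all probe sets tested 7.89% had D3T wholly above and 11.3% wholly below. The member differences were centred near 0, with 41 positive and 48 negative values, a median log2 difference of -0.04 and 76 of 89 (85.4%) within 0.5 of 0. Over all probe sets tested the median was 0.02, and 3630 of 5244 (69.2%) lay within 0.5. The sign of the member median was not stable, since it was 0.01 after quantile normalization, 0.0051 without D3T replicate 4 and 0.07 with the actin covariate.

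Members were brighter than most of the array, with a median signal of 1574 against 272 over all probe sets tested. Among tested probe sets of any gene at a signal of at least 1574, 168 of 844 passed (19.9%), and among members at that level 3 of 45 passed (6.67%). These probe sets still differed in brightness, with a median signal of 3740.0 for all and 2959.8 for members. The median residual SD at that level was 0.19 for all probe sets and 0.15 for members on the log2 scale. These shares are descriptions, and the difference between them was not tested.

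Each of the 6 calls was lost in some of the 8 fits that left out 1 array. Cox4i1 passed in 6 of these fits, Cox5b, Cox6b1 and Atp5if1 in 2, Ndufv2 in 1 and Atp5po in 0. None of the log2 differences changed sign. The count over all probe sets also moved, from 560 to between 240 and 695. Without vehicle replicate 2, 4 members were higher and 8 lower. No member was called higher without vehicle replicate 1, 3 or 4 or D3T replicate 1, 2 or 3, and 2 were higher without D3T replicate 4. The lower calls numbered 1 without vehicle replicate 1, vehicle replicate 3 or D3T replicate 4, 2 without D3T replicate 2 or 3, and 0 without vehicle replicate 4 or D3T replicate 1. The ratio of the 3' to the 5' actin control probe sets, a measure of RNA integrity and labelling, ran from 1.45 to 1.59 in vehicle and from 1.17 to 1.47 in D3T, so that the groups overlapped by 1 array each. With that ratio as a covariate 0 of 89 members and 35 of all 5244 probe sets passed. The ratio and the treatment largely went together, so this fit cannot tell their parts from each other. In it the 6 called probe sets kept the signs of their log2 differences. These were 0.59 for Ndufv2, 0.35 for Atp5po, 0.74 for Atp5if1, -0.34 for Cox4i1, -0.91 for Cox5b and -0.56 for Cox6b1.

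**Figure D1:**
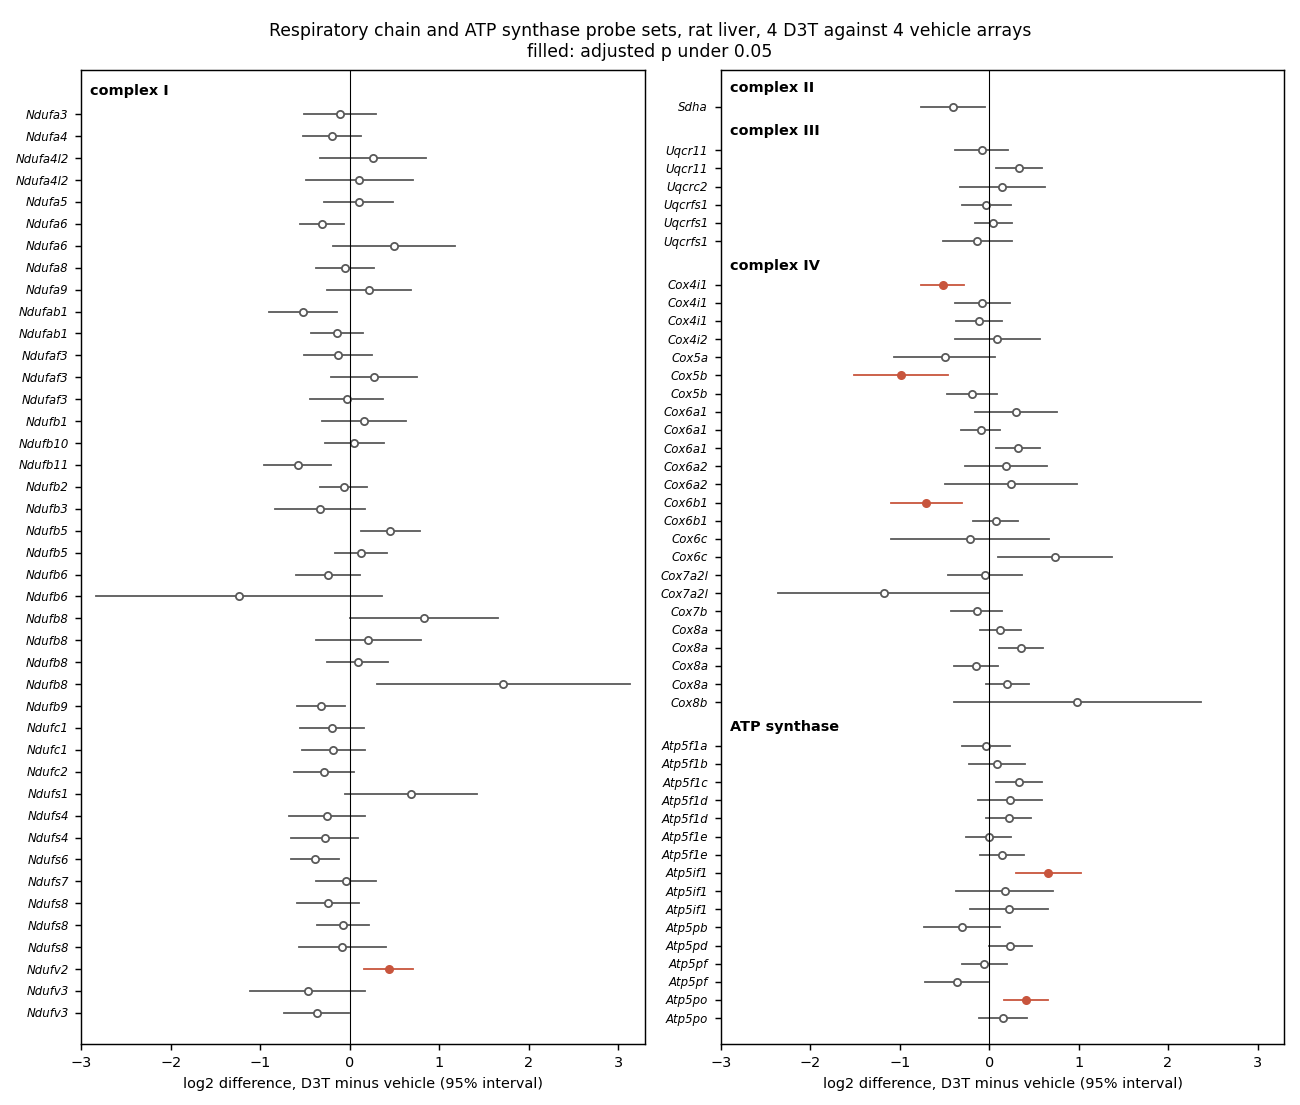
Log2 difference of D3T minus vehicle with its 95% interval (x axis) for each of the 89 tested member probe sets (1 line each, labelled by gene and grouped by complex), from 4 arrays per group. The 6 filled red points passed an adjusted p of 0.05, and 76 of the 89 points lie within 0.5 of 0.

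Complex I takes electrons from NADH in a peripheral arm that carries a flavin and iron-sulfur clusters, and pumps protons with a membrane arm. Of its 42 tested probe sets 1 rose and none fell, with 16 positive and 26 negative differences and a median of -0.08. The 1 that rose is 2.38% of the 42, against 4.2% called higher over all probe sets tested. The call was Ndufv2, an iron-sulfur subunit of the NADH-binding module. Its signal was 2359, 2558, 2671 and 2611 in vehicle replicates 1 to 4 and 3874, 3684, 3489.5 and 2812 in D3T replicates 1 to 4. Every D3T array lay above every vehicle array, and D3T replicate 4 was the lowest of the D3T arrays. The change was 1.35-fold upwards, 0.43 ± 0.12 (SE) on the log2 scale, with an adjusted p of 0.0471. The call held without D3T replicate 4 (adjusted p = 0.0264) and was lost in the 7 other fits without 1 array (up to 0.121). With median centring the adjusted p was 0.0562, and with the actin covariate the log2 difference was 0.59 (adjusted p = 0.205). No second probe set of Ndufv2 was there to compare with it.

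The other core subunits of complex I, which the enzyme shares with its bacterial relatives, did not pass. Ndufs1, the largest iron-sulfur subunit, had a low signal of 45.7, 75.7, 83.5 and 97.6 in vehicle and 112, 165, 118 and 85.1 after D3T (log2 difference 0.68, adjusted p = 0.204). Ndufs7 and Ndufs8 carry the clusters next to the ubiquinone site. Ndufs7 had a log2 difference of -0.04 and the 3 tested probe sets of Ndufs8 had differences from -0.24 to -0.08. Another Ndufs8 probe set was below the brightness limit and was not tested. Over all 6 tested probe sets of the core subunits the median was -0.06.

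Accessory subunits surround that core. None of their 30 tested probe sets passed, 19 were negative and the median was -0.16. In 5 of the 30, for Ndufa6, Ndufb6, Ndufb9, Ndufb11 and Ndufs6, the 4 D3T arrays lay below the 4 vehicle arrays, and in 2 above. Over all probe sets tested 11.3% had D3T wholly below and 7.89% wholly above. Ndufb11, of the membrane arm, came closest to the threshold, at 1585, 1196, 1313 and 1607 in vehicle and 1137, 970.0, 1024 and 706 after D3T (log2 difference -0.58 ± 0.17, adjusted p = 0.0522). Median centring, the higher floor, the narrower filter, array weights and leaving out vehicle replicate 2 each put Ndufb11 past the threshold.

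Ndufs6, an accessory subunit near the NADH-binding module, was measured at 3156, 2368, 2967 and 3122 in vehicle and 2148, 2364, 2114 and 2202 after D3T. The D3T arrays were close together and vehicle replicate 2 lay at their upper edge. Its log2 difference was -0.39 ± 0.12 (adjusted p = 0.0633), and -0.48 without vehicle replicate 2, where it passed (adjusted p = 0.02). Ndufb9, also of the membrane arm, had 3415, 3549, 3473 and 4055 in vehicle and 3146, 2385, 2988 and 3099.5 after D3T (log2 difference -0.32, adjusted p = 0.110). One Ndufa6 probe set was measured at 3086, 2406, 2960.2 and 2620.0 in vehicle and 2176, 2311, 2160.4 and 2241 after D3T, with a log2 difference of -0.31 and an adjusted p of 0.0996. The other Ndufa6 probe set had the opposite sign, at 0.49 with overlapping groups.

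Single arrays set the values of some accessory subunits. For Ndufb6, 1 probe set gave 1091, 1184, 1226 and 1274 in vehicle and 1084, 68.7, 924 and 943 after D3T. D3T replicate 2 stood far below the rest, and the log2 difference moved from -1.24 to -0.28 without it. The other Ndufb6 probe set showed no such drop, with 976 on that array and a log2 difference of -0.24.

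Ndufb8 had 4 tested probe sets, all with positive differences, from 0.09 to 1.72, and none passed. The widest was measured at 151, 415, 31.9 and 51.2 in vehicle and 343, 358, 315 and 310.0 after D3T, a log2 difference of 1.72 ± 0.64 with an adjusted p of 0.108. Its vehicle arrays were spread widely, and vehicle replicate 2 lay above every D3T array. A second probe set gave 394, 397, 382 and 143 against 499.9, 430.0, 402 and 992, groups that did not overlap (adjusted p = 0.166). Its log2 difference of 0.83 became -0.13 with the actin covariate. The brightest complex I probe set, also for Ndufb8, had 3521, 3542, 3368 and 4419 in vehicle and 3694, 4884, 4273 and 3081 after D3T, overlapping groups with a 95% interval of the log2 difference from -0.25 to 0.43.

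Ndufb5 was the remaining complex I gene with groups that did not overlap. One probe set gave 489, 367, 407 and 401 in vehicle and 506, 555, 657 and 558 after D3T, 1.37-fold upwards with an adjusted p of 0.0759. The other had overlapping groups and a log2 difference of 0.13. Ndufab1, the mitochondrial acyl carrier protein, had log2 differences of -0.52 and -0.14 in its 2 tested probe sets, the first with an adjusted p of 0.0768. Ndufaf3, an assembly factor and no subunit, had 3 tested probe sets between -0.13 and 0.27. Ndufa4, a subunit since assigned to complex IV, had a log2 difference of -0.20, and its paralogue Ndufa4l2 had 0.11 and 0.26 in the tested 2 of its 5 probe sets.

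Complex II, succinate dehydrogenase, joins the citric acid cycle to the chain. Its flavoprotein subunit Sdha was measured at 1744, 1448, 1990.2 and 2151 in vehicle and 1189, 1662, 1479 and 1194 after D3T. The groups overlapped, with vehicle replicate 2 below D3T replicates 2 and 3. Its log2 difference was -0.41 ± 0.16 and did not pass (adjusted p = 0.125).

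Complex III hands electrons from ubiquinol to cytochrome c. None of its 6 tested probe sets passed, with 3 positive and 3 negative differences and a median of 0.01. The brightest probe set of Uqcrfs1, the Rieske iron-sulfur protein, read 6849.9, 6241, 7087 and 6749.8 in vehicle and 7059, 6949.6, 7059.7 and 6711 after D3T. All 8 arrays lay within a narrow range, and the 95% interval of the log2 difference ran from -0.16 to 0.25. Its 2 other probe sets had log2 differences of -0.03 and -0.13. Uqcrc2, a core protein, had 0.15. The 2 probe sets of Uqcr11, a small subunit, differed in sign, at -0.09 and 0.34 (adjusted p = 0.688 and 0.0882).

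Complex IV, cytochrome c oxidase, held all 3 members that fell, among 24 tested probe sets with 11 positive and 13 negative differences and a median of -0.06. These 3 are 12.5% of the 24, against 6.48% called lower over all probe sets tested, a difference that was not tested. Cox4i1 codes for the largest nuclear-coded subunit. Its probe set that passed read 7957, 8155, 7604 and 9164 in vehicle and 5229.9, 5586, 6601 and 5533 after D3T. The highest D3T array lay below the lowest vehicle array. The fall was 1.43-fold (-0.52 ± 0.11 on the log2 scale, adjusted p = 0.0170), and it passed in 15 of 20 alternative settings. It was lost without vehicle replicate 4 or D3T replicate 1 (adjusted p up to 0.0526), and with the actin covariate (-0.34, adjusted p = 0.374). The call was also lost with no intensity trend (adjusted p = 0.0567) and with the replicate block (0.0592). The 2 other Cox4i1 probe sets did not pass. One read 17159, 12806, 14463 and 15725 in vehicle and 12787, 13803, 15560.1 and 13191 after D3T, overlapping groups with a log2 difference of -0.12 and a 95% interval from -0.38 to 0.14. The third had -0.08.

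Cox5b, a zinc-binding subunit on the matrix side, fell 1.98-fold in 1 of its 2 probe sets (adjusted p = 0.0279). The signals were 1982, 981, 2311 and 2043 in vehicle and 996, 818, 920.2 and 803 after D3T. Vehicle replicate 2 was about as low as the D3T arrays, so the groups overlapped, and without it the log2 difference went from -0.98 to -1.26. The call was lost without vehicle replicate 1, 3 or 4 or D3T replicate 1, 2 or 4 (adjusted p up to 0.0833), and with the actin covariate (adjusted p = 0.332). The second probe set read 4566, 3776, 4391 and 5213 in vehicle and 3851, 4488, 3781 and 3528 after D3T, a log2 difference of -0.19 that did not pass (adjusted p = 0.328).

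Cox6b1, which faces the intermembrane space, fell 1.63-fold in 1 of 2 probe sets, from 1039 ± 195 (SD, n = 4) to 635 ± 105 (adjusted p = 0.0333). Its arrays read 1114, 751, 1180.3 and 1112 in vehicle and 683, 752, 593 and 512 after D3T. Vehicle replicate 2 again lay among the D3T arrays. Leaving out vehicle replicate 1, 3 or 4 or D3T replicate 1, 3 or 4 ended the call (adjusted p up to 0.0976), as did quantile normalization (0.0571) and the actin covariate (0.410). The other probe set had the opposite sign, 5322, 4293, 4776 and 4441 against 4758, 5265, 5403 and 4361, with a log2 difference of 0.07 and a 95% interval from -0.18 to 0.32.

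**Figure D2:**
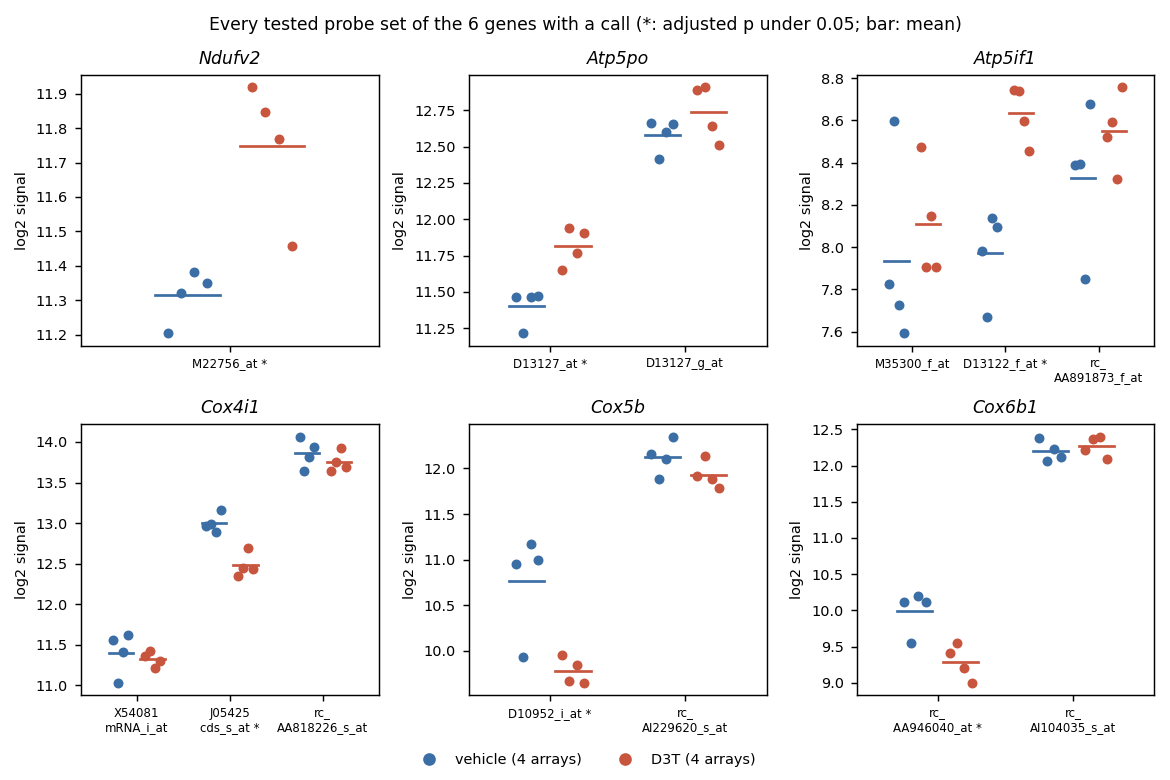
Log2 signal (y axis) on each of the 4 vehicle (blue) and 4 D3T (red) arrays for every tested probe set of the 6 genes with a call, each gene on a scale of its own. Bars are group means and asterisks mark the probe sets with an adjusted p under 0.05. In the 5 genes with 2 or more tested probe sets, 1 probe set passed in each gene and the others did not.

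The other complex IV subunits did not pass. Cox6a1, the liver form of its subunit, had 3 tested probe sets of mixed sign. One of them had groups that did not overlap, 7639.5, 6814, 6091 and 6415 in vehicle and 7743, 8462, 9384 and 8089 after D3T (1.25-fold, adjusted p = 0.0853), whereas the others had log2 differences of 0.30 and -0.10. Cox8a had 4 probe sets, 3 positive and 1 negative, from -0.14 to 0.35, the latter with an adjusted p of 0.0674. Cox5a was measured at 155, 175, 139 and 173 in vehicle and 139, 74.1, 133 and 120.4 after D3T, groups that did not overlap by a margin of less than 1 signal unit (log2 difference -0.50, adjusted p = 0.223). Cox6c had log2 differences of -0.22 and 0.74 in its 2 probe sets, and Cox7b had -0.14.

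Cox7a2l, a protein that helps join complexes III and IV into supercomplexes, was also low on D3T replicate 2 in 1 probe set, which read 809, 719, 837 and 794 in vehicle and 488, 82.6, 592 and 620.1 after D3T. All D3T arrays lay below the vehicle arrays and D3T replicate 2 far below the other D3T arrays. The log2 difference of -1.18 (adjusted p = 0.171) became -0.48 without that array (adjusted p = 0.0589). The second Cox7a2l probe set was highest on the same array, at 1079, and had a log2 difference of -0.05.

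Subunit forms that predominate in other tissues were also on the array. Cox6a2 and Cox8b are forms of heart and skeletal muscle, and Cox4i2 is known from lung. Their 4 tested probe sets had positive log2 differences from 0.09 for Cox4i2 to 0.99 for Cox8b, and none passed (adjusted p = 0.316 for Cox8b). That Cox8b probe set read 172, 126, 138 and 20.7 in vehicle and 275, 89.4, 163 and 237 after D3T, with vehicle replicate 4 far below the rest. The other Cox8b probe set was too dim to be tested, with all 4 vehicle arrays below the floor of 20.3 and 3 of 4 D3T arrays above it, the highest at 27.9. Of 6 striated muscle genes on the array 3 were tested and none passed. Ckm, the muscle creatine kinase, had the largest log2 difference of these 3 (0.95, adjusted p = 0.124). Acta1, the actin of skeletal muscle, was below the floor on all arrays but D3T replicate 3, where it read 34.1. The muscle genes summed to 344 to 479 in vehicle and 453 to 694 in D3T arrays, and their part in the Cox8b values was not tested.

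ATP synthase joins a membrane rotor to a catalytic F1 head. A central stalk turns with the rotor inside the head, and a peripheral stalk keeps the head from turning. Of its 16 tested probe sets 2 rose and none fell, with 11 positive and 5 negative differences and a median of 0.16. These 2 are 12.5% of the 16, against 4.2% called higher over all probe sets tested, a difference that was not tested. Atp5po codes for the peripheral stalk subunit known as OSCP. Its probe set that passed read 2831, 2378, 2831 and 2838 in vehicle and 3214, 3928, 3494 and 3836 after D3T. Each D3T array lay above each vehicle array, and vehicle replicate 2 lay below the other vehicle arrays. The rise was 1.33-fold (0.41 ± 0.11 on the log2 scale, adjusted p = 0.0442). The call was lost in all 8 fits without 1 array (adjusted p from 0.0570 to 0.109), with median centring (0.0751) and with the actin covariate (0.415). The second probe set read 6491, 5452, 6209 and 6439.6 against 7587, 7705, 6392 and 5826, overlapping groups with a log2 difference of 0.16 and an adjusted p of 0.414.

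Atp5if1 codes for the inhibitor that stops ATP synthase from running backwards. Its probe set that passed went from 253 ± 35.1 (SD, n = 4) to 398 ± 37.2, 1.58-fold upwards (0.66 ± 0.17 on the log2 scale, adjusted p = 0.0303). The arrays read 253, 203, 281 and 274 in vehicle and 428, 427, 388 and 350.3 after D3T. The lowest D3T array was above the highest vehicle array. This call was lost without vehicle replicate 1, 3 or 4 or D3T replicate 1, 2 or 3 (adjusted p up to 0.0814) and with the actin covariate (0.250). The suffix in the name of this probe set, as in that of the Cox4i1 probe set that fell, marks probes that are not all unique to 1 transcript. The Cox5b probe set that fell also carries a suffix. The fit without suffixed probe sets left out the called probe sets of Atp5if1, Cox4i1 and Cox5b. Of 3 other Atp5if1 probe sets, 2 were tested, with overlapping groups and log2 differences of 0.17 and 0.22, and the third lay below the floor on all 8 arrays.

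Among the F1 subunits 5 of 7 tested probe sets were positive and none passed. The catalytic beta subunit Atp5f1b read 9935, 9809.5, 8632 and 10076 in vehicle and 8760.2, 12663, 11529.9 and 8467 after D3T. The D3T arrays spread on both sides of the vehicle arrays, with a 95% interval of the log2 difference from -0.23 to 0.40. Its partner Atp5f1a had a log2 difference of -0.04. Atp5f1c, the central stalk's gamma subunit, read 2789, 2702, 2995 and 3026 in vehicle and 3314, 4327, 3332 and 3595 after D3T, groups that did not overlap (1.26-fold, adjusted p = 0.0907). The remaining F1 subunits had 0.24 and 0.22 for Atp5f1d and -0.01 and 0.14 for Atp5f1e.

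In the peripheral stalk Atp5pd also had groups that did not overlap, 3228, 2714, 3096 and 2594 against 3320.3, 3334, 3528 and 3481, with a log2 difference of 0.24 (adjusted p = 0.171). Atp5pb had -0.31, and D3T replicate 2 was its lowest array at 1326. The 2 probe sets of Atp5pf, which share an accession, had -0.05 and -0.37.

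Of 26 genes with 2 or more tested probe sets, the log2 differences had the same sign for 17. The signs differed, in some cases between values near 0, for 9, namely Ndufa6, Ndufaf3, Uqcr11, Uqcrfs1, Cox6a1, Cox6b1, Cox6c, Cox8a and Atp5f1e. Of the 6 genes with a call, Ndufv2 had a single tested probe set. The other 5 had 2 or 3, and in none of them did a second probe set pass. The probe sets of a gene can read different parts or forms of its transcript, and their positions were not analysed here. Of the 11 members that were not tested, Cox6c-ps1 was the only gene without another probe set.

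By array, complexes shifted by small amounts. The median deviation of the 16 ATP synthase probe sets from the vehicle mean was 0.20, 0.24 and 0.16 on D3T replicates 1 to 3 and -0.05 on D3T replicate 4. For the 42 complex I probe sets it was -0.03, -0.07, -0.07 and -0.20 on D3T replicates 1 to 4. Vehicle replicate 2, at -0.17, was as low as these, and the other vehicle arrays lay between 0.02 and 0.10. The groups therefore overlapped for both complexes. D3T replicate 4 had the lowest actin 3'/5' ratio of the 8 arrays, and its part in these shifts was not tested.

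**Figure D3:**
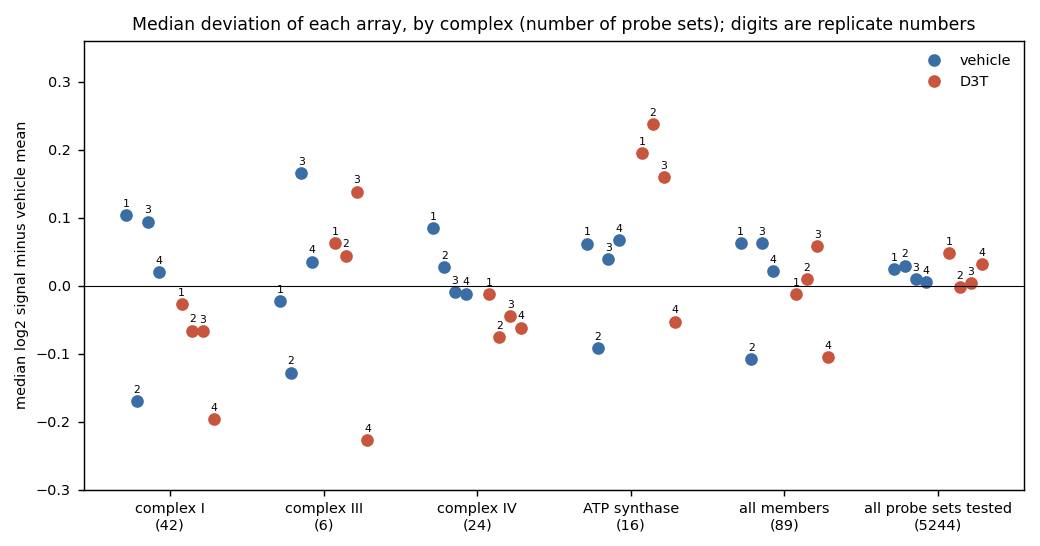
Median log2 signal minus the vehicle mean (y axis) over the tested probe sets of each complex, of all members and of all probe sets (x axis, with the number of probe sets), for each vehicle (blue) and D3T (red) array, with digits for replicate numbers. Vehicle replicate 2 (-0.11) and D3T replicate 4 (-0.10) are the lowest arrays over all 89 members.

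The other mitochondrial genes came from lists chosen by role. Of 108 names listed 46 were on the array and 40 were tested with 1 probe set each. Of these 40, 3 rose and none fell, with 14 negative differences and a median of 0.16. Over all probe sets tested 4.2% passed as higher and 6.48% as lower. The 40 genes were each read from their brightest tested probe set, and the difference from these shares was not tested. Vdac1, the main pore of the outer membrane, rose 1.96-fold from 391 ± 78.5 (SD, n = 4) to 760 ± 124 (log2 difference 0.97, adjusted p = 0.0122). Hspd1, the chaperonin of the matrix, read 3801 ± 509 and then 5458 ± 785 with D3T, a log2 difference of 0.52 (adjusted p = 0.0412). Its groups overlapped, with D3T replicate 3 (4374) below vehicle replicate 3 (4408), whereas those of Vdac1 and Idh2 did not. Idh2, which makes NADPH in the matrix, was at 1083 ± 138 against 1508 ± 154 with D3T, 0.48 on the log2 scale (adjusted p = 0.0454). Each of the 3 had a second probe set of the same sign. With the actin covariate none of the 40 passed.

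By list, 1 of 12 tested genes of the citric acid cycle and pyruvate entry rose, 1 of 10 carriers and channels, and 1 of 10 for import, proteins and DNA. None of 4 further electron transfer genes, 1 cofactor gene and 3 regulators passed. The brightest of these lists were Mdh2, malate dehydrogenase, with a log2 difference of -0.47 (adjusted p = 0.108), Slc25a5, an ADP/ATP carrier, with 0.18 (0.267), and Hspd1. Cyc1, the cytochrome c1 of complex III, had 0.31 (0.152), and Coq3, of ubiquinone synthesis, 0.09 (0.679). Of the regulators Esrra, a nuclear receptor known to drive respiratory chain genes, read 189, 226, 166 and 172 in vehicle and 52.2, 93.6, 192 and 32.7 after D3T, a log2 difference of -1.33 that did not pass (adjusted p = 0.0915). Ppara had 0.46 (adjusted p = 0.149) with D3T arrays above vehicle arrays, and Nfe2l2 had -0.73 (adjusted p = 0.219).

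**Figure D4:**
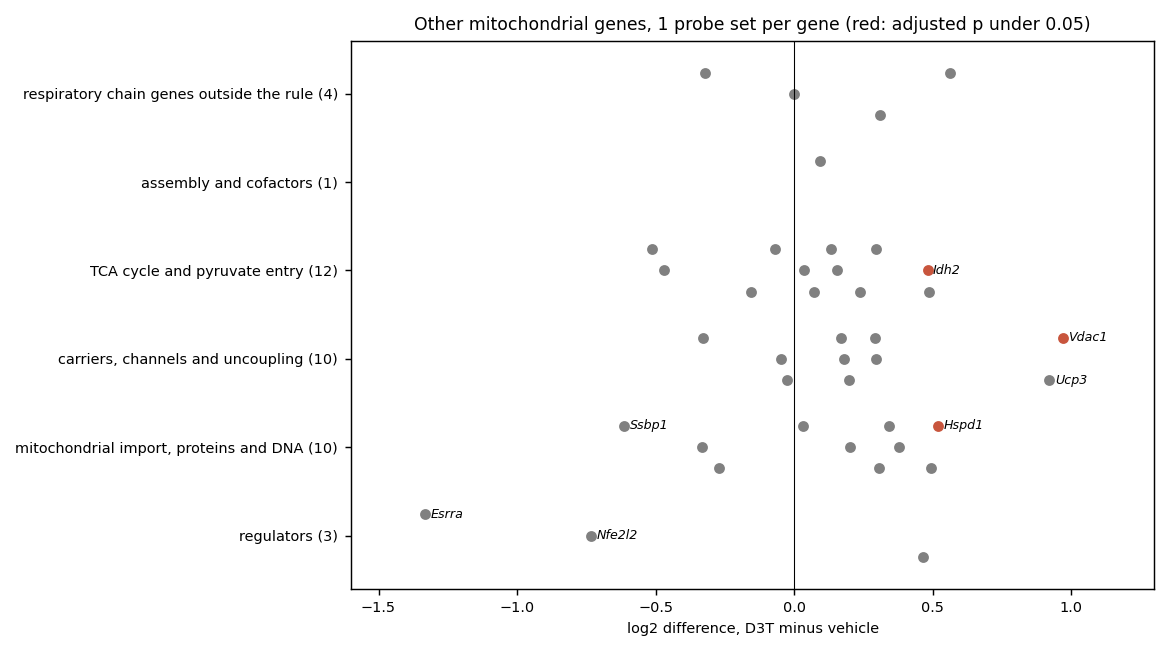
Log2 difference of D3T minus vehicle (x axis) for 40 other mitochondrial genes in 6 lists (y axis, number of genes in brackets), 1 point per gene. The 3 red points, Vdac1, Hspd1 and Idh2, passed an adjusted p of 0.05.

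Known control regions of respiratory chain genes hold sites for NRF1, YY1 and ETS factors such as GABP, which is also called nuclear respiratory factor 2 and is not the Nfe2l2 protein. Nfe2l2 binds antioxidant response elements. RefSeq promoters of assembly GRCr8, from 250 bases before to 50 after the gene start, were found for 46 of the 54 genes and searched on both strands. The response element core TGACNNNGC was in 8 of 46 (17.4%), against 14.3% of 4192 promoters of genes on the array and 12.1% of all 33469. YY1's AAGATGGC was in 11 of 46 (23.9%, against 3.89% and 3.17%), the ETS site CCGGAAG in 9 (19.6%, against 11.9% and 8.75%) and the NRF1 core GCGCATGCG in 1 (2.17%, against 2.03% and 1.52%). A match is a description of the letters and does not show binding.

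Of the 6 genes with a call 3 held a match, and their promoters are shown to set the genes that fell beside one that rose, with matches in capitals. Cox4i1 (chr19:65630133-65630432, + strand) has 2 ETS sites. Cox5b (chr9:46417587-46417886, + strand) has a response element core and then an ETS site. Atp5po (chr11:44657434-44657733, - strand) has the NRF1 core on both strands, overlapping, and a YY1 site at the gene start. The windows of Ndufv2, Atp5if1 and Cox6b1 held none of these letters, so the higher and lower calls each included genes with and without a match.
Cox4i1: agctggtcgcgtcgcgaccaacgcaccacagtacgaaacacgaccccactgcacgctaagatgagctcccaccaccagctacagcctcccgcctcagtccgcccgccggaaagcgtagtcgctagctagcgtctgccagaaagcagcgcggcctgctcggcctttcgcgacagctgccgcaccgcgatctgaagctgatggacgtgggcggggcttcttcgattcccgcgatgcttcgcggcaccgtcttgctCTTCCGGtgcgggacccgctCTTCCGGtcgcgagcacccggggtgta
Cox5b: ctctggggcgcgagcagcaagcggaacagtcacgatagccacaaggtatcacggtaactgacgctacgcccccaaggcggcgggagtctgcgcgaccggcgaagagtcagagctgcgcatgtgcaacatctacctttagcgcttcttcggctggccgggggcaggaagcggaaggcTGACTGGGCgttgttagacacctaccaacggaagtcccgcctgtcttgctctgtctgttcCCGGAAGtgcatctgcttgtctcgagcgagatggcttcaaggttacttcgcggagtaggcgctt
Atp5po: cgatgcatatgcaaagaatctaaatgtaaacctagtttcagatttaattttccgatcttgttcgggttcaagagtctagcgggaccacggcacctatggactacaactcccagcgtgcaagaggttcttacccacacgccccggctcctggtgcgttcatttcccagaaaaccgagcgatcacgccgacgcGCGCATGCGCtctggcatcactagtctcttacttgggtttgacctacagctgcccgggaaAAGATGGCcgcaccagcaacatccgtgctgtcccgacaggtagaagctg

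Hepatocyte genes were present on all arrays as the tissue label says. All 8 listed passed the brightness limit, with Alb, serum albumin, averaging 39143 ± 8877 (SD, n = 4) in vehicle rats and 53452 ± 8971 in D3T rats. Of the 8, Fgb, a fibrinogen chain, fell (log2 difference -0.80, adjusted p = 0.0126). Sums over blood and immune cell genes were lower on D3T arrays. The 3 erythroid genes summed to 11068 to 15446 in vehicle and 7601 to 10337 in D3T arrays. Hbb, a globin, takes nearly all of that sum, with a log2 difference of -0.51 (adjusted p = 0.0600), whereas Alas2 had -0.13 and Slc4a1 0.33. The sums were 1365 to 2283 and 606 to 1108 for 4 lymphocyte genes, mostly Cd74 (the list's median log2 difference was 0.10), and for 5 Kupffer cell and macrophage genes 4309 to 4596 and 3081 to 3938. Ptprc and Cd79b, the other tested genes of the lymphocyte list, had positive log2 differences of 0.64 and 0.10, so its lower sum reflects Cd74. Singly, Cd74 and C1qb fell and Cd14 rose among the lymphocyte and macrophage genes, and none of the 3 erythroid genes passed. Of the 3 tested stellate cell genes Col3a1 fell, and none of the 3 cholangiocyte or 2 endothelial genes tested passed. In whole liver, fewer cells of a type and less RNA per cell cannot be told apart, and the part of these shifts in the member values was not tested.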

How the data were processed

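Liver RNA of 4 vehicle and 4 D3T rats was hybridised to version A of Affymetrix's Rat Genome U34 array, 1 per rat. The deposited value of each probe set is a signal intensity on a linear scale, computed by the authors with MAS5 per the submitters' processing notes. The sources used here give no version, scaling target or detection call. Groups came from the sample titles. Replicate numbers were not used to pair the arrays in the main fit. Same-numbered arrays had deviations correlated between -0.20 and 0.06, and arrays with different numbers between -0.14 and 0.21. With 4 arrays per group these correlations cannot exclude a pairing.

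The 8799 probe sets include 59 controls, which were left out of tests. Signals were scaled so that every array had a 2% trimmed mean of 500, floored at the 20th percentile (signal 20.3) and log2-transformed. The brightest 60% (5244) were fitted with limma 3.58.1 in R 4.3.3 (lmFit, eBayes with trend = TRUE), with Benjamini-Hochberg adjustment and a threshold of 0.05. The script was tested on simulated data. Fold changes come from mean log2 values.

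Genes named are all members with a call or groups that do not overlap, the brightest member of each complex, and called genes of the lists. Others were named after their values were seen. Members and lists were chosen with earlier results of these data known. For lists, the brightest probe set stood for a gene. Alternatives changed the scaling, floor, pseudocount, filter, variance model, array weights, replicate block and actin covariate, or left out suffixed probe sets or 1 array. Each rat is 1 sample.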

Additional observations from a re-analysis of the deposited data

Results flagged for a closer look

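Of 178 groups of 4 arrays, 2 for each tested member probe set, 10 (5.62%) held an array far from the other 3 by Dixon's test, which by chance picks out about 1 in 20. In complex I, Ndufb10 was low on vehicle replicate 2 (1017) and Ndufc1 on D3T replicate 3 (1889). Ndufb6 was low on D3T replicate 2 (68.7), and Ndufb8 on vehicle replicate 4 (143). The Rieske protein gene Uqcrfs1 was high on vehicle replicate 3 in 1 probe set (762). In complex IV, Cox6b1 was low on vehicle replicate 2 (751), Cox8b low on vehicle replicate 4 (20.7), and Cox7a2l high on vehicle replicate 4 in 1 probe set (955.5) and low on D3T replicate 2 in the other (82.6). Atp5po of ATP synthase was low on vehicle replicate 2 (2378). For Cox6b1 and Atp5po these are the probe sets with a call, and their values without that array are a log2 difference of -0.85 (adjusted p = 0.0116) and 0.35 (adjusted p = 0.0683).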

How the results depend on the processing

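Of all 5244 probe sets 560 passed, against 309 with no filter, 333 with no intensity trend, 290 with the replicate block, 35 with the actin covariate, 261 without suffixed probe sets and 240 to 695 without 1 array (lowest without vehicle replicate 3, highest without vehicle replicate 2). The 3 higher members became 1 with median centring, no filter, no trend or no suffixed probe sets, 5 with array weights, 0 with the replicate block or the actin covariate, and 0 to 4 without 1 array. The 3 lower members became 1 with no filter, the replicate block or no suffixed probe sets, 5 in the brightest 30%, 7 with array weights, 0 with no trend or the actin covariate, and 0 to 8 without 1 array. Of the main calls, only Atp5if1 was kept with no trend, only Cox5b with the replicate block, and only Atp5if1 and Cox4i1 with no filter. In the brightest 30%, 11.5% of members and 22.4% of all probe sets passed. The 3 other mitochondrial genes became 1 with no trend or the replicate block, 5 with array weights, 0 with the actin covariate and 1 to 5 without 1 array. The member median moved to 0.072 with the actin covariate. Sign changes were -0.075 for Uqcrfs1 with quantile normalization, and, with the actin covariate, -0.13 for Ndufb8 (rc_AA851403_at) and 0.072 for Cox4i1 (rc_AA818226_s_at). Without 1 array the brightest Ndufb8 probe set ran from -0.016 to 0.21 and Atp5f1b from -0.016 to 0.18. The cause of these shifts was not tested. Filters and left-out probe sets or arrays also change how many are tested.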

Other observations

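Further respiratory chain genes were measured by probe sets matched to several symbols, so their signal cannot be given to 1 gene. The probe set shared by Atp5mc1 and Atp5mc1l1 went from 4526 ± 271 (SD, n = 4) in vehicle to 6434 ± 526 after D3T, with a log2 difference of 0.51 ± 0.10 (SE) and an adjusted p of 0.0144. Atp5mc1 codes for the c subunit of the ATP synthase rotor, and all 4 D3T arrays lay above the vehicle arrays. The probe set shared by Atp5mc2, another gene for the same subunit, and Atp5mc2l1 had 0.14 (adjusted p = 0.372). In complex IV, 1 probe set shared by Cox5a and LOC100361008 read 4314 ± 456 and 5036 ± 710 (log2 difference 0.22, adjusted p = 0.278), the opposite sign to the Cox5a probe set with a single symbol. The probe set of Cox7a2 and Cox7a2l2 had -0.35 (adjusted p = 0.134). Those for Ndufb4 and Ndufs5 with their related loci had -0.30 (0.192) and -0.08 (0.657), and that for cytochrome c, Cycs, with its relatives had -0.23 (0.422).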
